A study of Mus musculus with 3 samples.

Results

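Interferon-stimulated genes are the genes that cells transcribe when interferon reaches them, and their products restrict viruses, amplify the response and call in lymphocytes. The set described here holds 42 genes, chosen by name, of the 26989 genes listed in the deposited tables, and every one of the 42 has a row in each of the 3 tables. By role they are 4 sensors of viral nucleic acid, 6 transcription factors or parts of the ISG15 system, 4 IFIT genes, 2 genes of the viperin locus, 5 OAS genes, 2 Mx genes, 10 other effectors, 7 immunity GTPases and 2 chemokines that bind CXCR3. Single whole-skin cells of 9-week-old C57BL/6 mice were captured with the Singleron GEXSCOPE kit, in 1 library per group. The control library is labelled nomal+saline, the UV library UV irradiated+saline and the UV plus VD library UV irradiated+VD, where VD is taken to be vitamin D, which the title of the series names. No transgene or deletion is labelled in any group, and control and UV skin both received saline. The UV dose, the time after exposure, the way VD and saline were given and the number of animals behind each library are not given in the sources used here. With 1 library per group nothing could be tested across animals, so each comparison is between libraries, and intervals in square brackets are 95% intervals for counting error unless another source is named.

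The filters left 9078, 5451 and 6199 cells in the control, UV and UV plus VD libraries, with 79450666, 50610389 and 69126823 counts and a median of 6822.5, 7566 and 9301 counts per cell, and all values below follow that order of libraries. Cell types were rebuilt from marker genes, so each name means cells with that type's markers. Keratinocytes numbered 8475, 3596 and 5770 cells (93.4%, 66.0% and 93.1% of cells), fibroblasts 212, 485 and 207 (2.34%, 8.90% and 3.34%), myeloid cells 134, 591 and 90 (1.48%, 10.8% and 1.45%) and T and NK cells 131, 170 and 59 (1.44%, 3.12% and 0.952%). The defining markers were present: Krt10 stood at 11379, 13426 and 11357 CPM in keratinocytes, Dcn at 14188, 15400.0 and 12555 CPM in fibroblasts, Lyz2 at 6459.7, 6175 and 8253 CPM in myeloid cells and Cd3e at 403, 633 and 494 CPM in T and NK cells. Ncr1, an NK cell marker, had 0 counts in the T and NK cells of the control and UV plus VD libraries. CPM, here and below, is counts per 1000000 counts of the class or cells named. The libraries shared 54 (control and UV), 66 (control and UV plus VD) and 37 (UV and UV plus VD) cell barcodes.

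Type I interferons such as interferon beta act on their target genes through a promoter sequence called the interferon-stimulated response element (ISRE), bound by a complex that holds IRF9. Interferon gamma, made mainly by T and NK cells, acts through a different sequence, the gamma-activated sequence (GAS), and is known as the stronger inducer of the immunity GTPases and of Cxcl9. In skin, macrophages and dendritic cells are well-known sources of type I interferon, and fibroblasts and keratinocytes can respond to it.

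Promoter sequence is shown for 11 members, because the values below separate genes that stood lower in irradiated macrophages from genes that stood higher, and both kinds carry ISRE letters. The RefSeq promoter table (GRCm38.p6) had an entry for 32 of the 42 members, and the 250 bases upstream of each start were searched on both strands. The ISRE core searched was GAAA, any 2 bases, GAAA (on the other strand TTTC, any 2 bases, TTTC), and it was present for 16 of these 32 genes, against 3.46% of the 27025 genes in the table. The GAS letters TTCNNNGAA, which read the same on both strands, were present for 6 of 32 (18.8%), against 8.13% of genes. The 11 genes were picked after their values were seen, from those with the ISRE core, and the capitals in each line mark those letters and any GAS match in the stretch. Ifit1, Ifit3, Rsad2, Isg15 and Cxcl10 were lower in the resident macrophages of the UV library than in those of the control library, and their stretches lie at chr19:34640755-34640843 (plus strand), chr19:34583343-34583446 (plus), chr12:26456533-26456602 (minus), chr4:156200845-156200926 (minus) and chr5:92349063-92349132 (minus).
Ifit1: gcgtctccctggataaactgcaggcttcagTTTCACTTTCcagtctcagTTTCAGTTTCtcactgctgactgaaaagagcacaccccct
Ifit3: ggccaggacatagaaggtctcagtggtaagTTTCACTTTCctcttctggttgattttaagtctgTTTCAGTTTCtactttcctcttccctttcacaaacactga
Rsad2: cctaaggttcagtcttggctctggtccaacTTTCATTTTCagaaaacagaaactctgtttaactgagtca
Isg15: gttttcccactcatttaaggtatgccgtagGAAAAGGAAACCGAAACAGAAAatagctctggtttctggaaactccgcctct
Cxcl10: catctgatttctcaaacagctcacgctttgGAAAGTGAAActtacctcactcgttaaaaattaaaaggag
Bst2, Oas1a and Trim30a were higher in those same cells, with stretches at chr8:71537557-71537632 (minus), chr5:120907526-120907575 (minus) and chr7:104465194-104465259 (minus).
Bst2: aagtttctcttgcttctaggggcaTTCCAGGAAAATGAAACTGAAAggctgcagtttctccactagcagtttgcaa
Oas1a: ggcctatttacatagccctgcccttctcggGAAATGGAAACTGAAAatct
Trim30a: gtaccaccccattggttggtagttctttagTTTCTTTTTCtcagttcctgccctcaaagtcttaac
Irgm1, Igtp and Gbp2 are immunity GTPases that were higher in UV keratinocytes, with stretches at chr11:48871421-48871480 (minus), chr11:58199492-58199555 (plus) and chr3:142620574-142620643 (plus).
Irgm1: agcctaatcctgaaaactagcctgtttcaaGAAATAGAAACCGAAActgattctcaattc
Igtp: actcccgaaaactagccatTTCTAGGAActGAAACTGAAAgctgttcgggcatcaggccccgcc
Gbp2: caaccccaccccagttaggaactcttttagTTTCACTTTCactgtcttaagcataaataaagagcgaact
Among the 11, a GAS match fell inside the stretch shown for Bst2 and for Igtp, overlapping the ISRE letters in Bst2 and just upstream of them in Igtp. The ISRE core was not found in the windows of Ifit2, Cmpk2, Oasl1 or Irf7, which is a statement on these 250 bases alone. A match is a string of letters, and no binding was measured.

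Over all cells the members' summed level was 369, 1179.8 and 353 CPM, so it was highest in the UV library and close to the control level in the UV plus VD library. In UV against control there were 20 of 42 measured members at least 1.5-fold higher and 0 at least 1.5-fold lower, against 6.35% and 0.944% of all genes measured, on a log2 ratio of CPM plus a pseudocount of 10. The median log2 ratio over members was 0.57 [0.37, 0.82] (interval over members), against 0.03 for all genes. Against UV, the UV plus VD library had 0 of 42 measured members at least 1.5-fold higher and 20 at least 1.5-fold lower, against 0.593% and 6.31% of all genes measured, with a median of -0.57 [-0.78, -0.53]. These comparisons share the UV library, so each is given on its own values. Without the pseudocount, 35 members were higher and 1 lower in the UV library, against 34.4% and 6.26% of all genes, so at this threshold the higher share of all genes was also large. With VD, 1 was then higher and 39 lower than in UV, against 4.25% and 35.4%.

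Ifi27l2a, a small interferon-induced membrane protein, stood at 19.5, 189.7 and 20.6 CPM, 9.75-fold higher [9.24, 10.3] in the UV than in the control library and 9.20-fold lower [8.71, 9.74] in UV plus VD than in UV. Bst2, the tetherin that holds budding virus on the cell surface, stood at 5.70, 60.7 and 8.19 CPM, and Ifitm3, which blocks virus entry from endosomes, at 144 [142, 147], 444 [438, 449.6] and 141 [138, 144] CPM. Irf7, the transcription factor that amplifies type I interferon, stood at 7.99, 35.6 and 13.5 CPM. These 4 genes were all high in the UV library alone. Gbp2, a guanylate-binding GTPase, stood at 4.08, 26.9 and 7.62 CPM, Rtp4, an interferon-induced chaperone, at 2.79, 17.2 and 2.82 CPM, Trim30a, a TRIM-family protein, at 1.31, 15 and 1.58 CPM, and the chemokine Cxcl10 at 1.45, 11.3 and 1.88 CPM. Oasl1, a relative of the 2-5A synthetases known to hold back translation of Irf7, stood at 18.2, 34.5 and 15.6 CPM.

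The IFIT and viperin genes had another order over all cells. Rsad2, which encodes viperin, an enzyme that makes a chain-terminating nucleotide, stood at 34.8, 38.2 and 16.4 CPM, so that the control and UV libraries were close and the UV plus VD library was 2.33-fold lower [2.17, 2.51] than UV. Ifit1, which binds viral RNA lacking host cap marks, stood at 12.6, 19.6 and 8.0 CPM. Cmpk2, a nucleotide kinase encoded next to Rsad2, stood at 2.54, 3.42 and 1.66 CPM. The sensor Ifih1, which recognises long double-stranded RNA, stood at 19.1, 27.4 and 15.3 CPM. Isg20, an exonuclease, was lowest in the UV library, at 20.1, 13.3 and 20.6 CPM. The remaining members named over all cells had few counts: Herc6, a ligase of the ISG15 system, stood at 0.579, 1.62 and 0.882 CPM, Mx1 and Mx2, dynamin-like GTPases, at 0.692, 1.66 and 0.405 CPM and 0.592, 1.84 and 0.593 CPM, and Oas2, a 2-5A synthetase, at 0.126, 1.68 and 0.188 CPM.

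The all-cell values went with the cell classes as well as with levels inside them. Keratinocytes held 54.3% of the members' counts in the control library, 23.3% in UV and 56.4% in UV plus VD, while fibroblasts held 9.50%, 27.5% and 20.3% and myeloid cells 32.1%, 39.4% and 21.6%. Of the summed difference of 811 CPM in UV against control, 771 CPM came from class shares and 40 CPM from within classes. The within part holds shifts in the mix of cells inside a class as well as levels, and it was not split further. The 40 CPM was the net of opposite parts: 30 members added 282 CPM within classes, led by Ifitm3 (84.1), Ifi27l2a (66.1) and Bst2 (26.2), and the other 12 members came to -242 CPM, led by Rsad2 (-111), Oasl1 (-49.5) and Ifit1 (-36.1). In UV plus VD against UV the parts were -772 and -55.3 CPM. The share part was the larger for 31 of 42 members in UV against control and for 37 of 42 in UV plus VD against UV. The same count was not made over all genes, so it does not set the members apart. With each class held at its control share of counts, the median log2 ratio in UV against control was 0.14 [0.06, 0.25], with 6 members higher and 3 lower, against 2.17% and 1.03% of all genes. The same median in UV plus VD against UV was -0.14 [-0.21, -0.06], with 2 members higher and 2 lower, against 0.352% and 1.29%. The 3 members lower at control shares in UV against control were Rsad2 (-1.39), Oasl1 (-0.81) and Ifit1 (-0.66), and the 6 higher were Ifi27l2a (1.23), Bst2 (0.92), Irgm1 (0.85), Gbp2 (0.75), Igtp (0.74) and Irf7 (0.62).

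The near-equal all-cell level of Rsad2 in control and UV was the sum of opposite parts: 115 CPM from class shares and -111 CPM from within classes. The myeloid cells count as 1 class here, so a change in their mix falls in the within part. Cells with resident macrophage markers were 95 of 134 myeloid cells in control and 116 of 591 in UV. The source of Rsad2 stayed myeloid, with 95.8%, 83.9% and 85.9% of its counts in myeloid cells. Ifit1 shifted its source instead. In the control library 94.1% of its counts lay in myeloid cells and 1.80% in fibroblasts, in the UV library 39.8% and 55.0%, and in the UV plus VD library 59.7% and 36.4%.

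**Figure D1:**
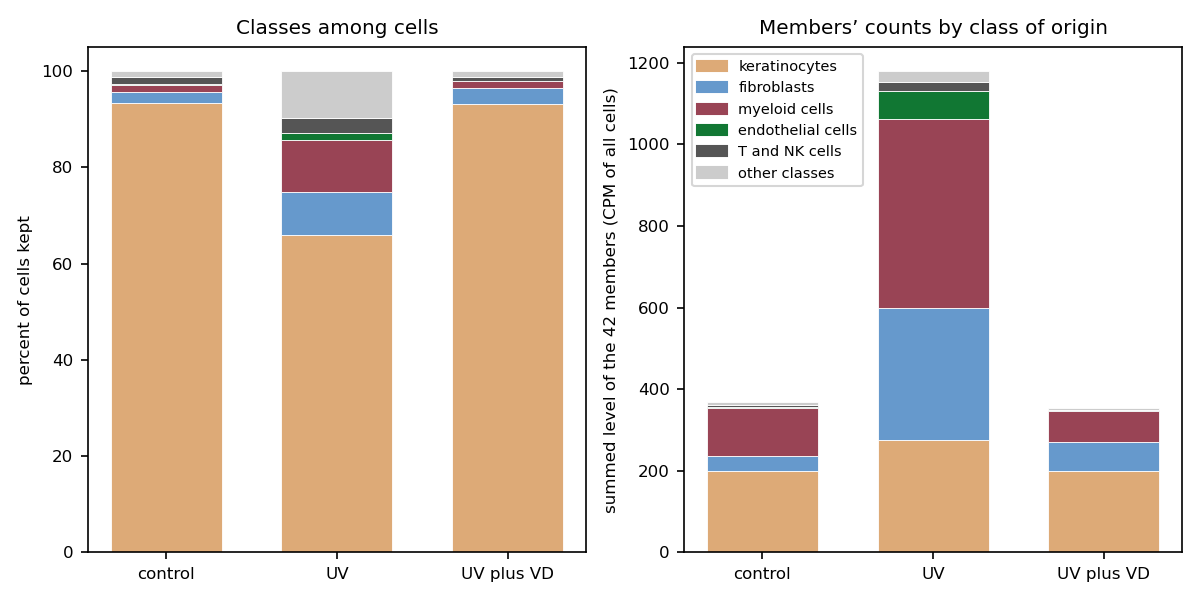
Left, percent of the cells kept that fell in each class, by library. Right, summed level of the 42 members in CPM of all cells, stacked by the class the counts came from: the UV bar reaches 1179.8 CPM, against 369 in control and 353 in UV plus VD, and most of its extra height is myeloid and fibroblast.

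Myeloid cells carried the highest summed level of the members among the 4 classes in every library, at 12759, 7243 and 10393 CPM. In UV against control there were 15 of 42 measured members at least 1.5-fold higher and 14 at least 1.5-fold lower, against 18.3% and 6.16% of all genes measured, and the median was 0.16 [-0.57, 0.65] (all genes 0.15). The 14 lower members were the 4 IFIT, 2 viperin locus and 2 Mx genes with Oasl1, Ifih1, Isg15, Rtp4, Iigp1 and Cxcl10, and Irf7, Oas3, Xaf1, Zbp1 and Ifi27l2a were among those higher. With VD there were 15 of 42 measured members at least 1.5-fold higher and 8 at least 1.5-fold lower than in UV alone, against 8.47% and 17.1% of all genes measured, with a median of -0.06 [-0.23, 0.62] (all genes -0.10). The make-up of the class differed between libraries: cells with resident macrophage markers (Lyve1, Cd209f) numbered 95, 116 and 68, a cluster led by Gpnmb and Spp1 5, 259 and 4, and dendritic cells 6, 121 and 4. A further 25, 89 and 10 cells lay in 4 sub-clusters led by keratinocyte or T-cell genes, and without them 15 members were higher and 16 lower in UV against control. The share of all genes without those cells was not computed. Fibroblast markers in the myeloid class summed to 61.1, 428 and 207 CPM, with 8, 16 and 11 of 16 seen, and keratinocyte markers to 17254, 16661 and 15881 CPM, and their part in the result was not tested. The resident macrophages are the only one of these with more than 50 cells in each library and were therefore compared on their own, with their Mrc1 at 1824, 2241 and 2096 CPM.

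In resident macrophages the summed level was 17810.2, 12063 and 13697 CPM, and the roles went apart. There were 13 of 39 measured members at least 1.5-fold higher and 13 at least 1.5-fold lower in UV against control, against 25.5% and 4.4% of all genes measured, with a median of 0.27 [-0.68, 0.64] (all genes 0.26). The lower members were all 4 IFIT genes, both viperin locus genes, both Mx genes, Ifih1, Isg15, Oasl1, Rtp4 and Cxcl10. With VD, set against UV, there were 12 of 38 measured members at least 1.5-fold higher and 6 at least 1.5-fold lower, against 6.61% and 21.0% of all genes measured, with a median of 0.07 [-0.39, 0.39] (all genes -0.18), and the IFIT, viperin and Mx genes were all among the higher ones. The keratinocyte markers carried along in these cells summed to 4561, 3221 and 4436 CPM, with 20, 20 and 19 of 21 listed markers seen (Krt2 was at 0 in all 3 libraries), and their part in the result was not tested.

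Among the sensors, Ifih1 stood at 636 [563, 716], 279.6 [243, 320.1] and 292 [237, 357] CPM in resident macrophages, 2.27-fold lower [1.89, 2.73] in UV than in control, and UV plus VD lay close to UV. Over the whole myeloid class Ifih1 stood at 448, 134 and 262 CPM. Zbp1, a sensor of Z-form nucleic acid, stood at 39.3, 69.2 and 76.1 CPM in resident macrophages and 31.2, 87.1 and 73.0 CPM in the myeloid class, higher in both irradiated libraries. Irf7 stood at 97.1 [70.0, 131], 213 [181, 249] and 146 [108, 194] CPM in resident macrophages, 2.19-fold higher [1.55, 3.16] in UV than in control, and at 67.9, 297 and 126 CPM in the myeloid class, where it was 4.37-fold higher [3.29, 5.93]. Its partner factor in the type I signal, Irf9, stood at 11.6, 36.0 and 39.6 CPM. Isg15, the ubiquitin-like modifier that gives its system its name, went the other way, at 284, 121 and 240.3 CPM, 2.35-fold lower [1.77, 3.11] in UV.

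The IFIT family had the lowest median log2 ratio of the role groups in resident macrophages in UV against control, at -2.30, with all 4 genes lower. Ifit1 stood at 1868 [1741, 2001], 324 [284, 367] and 901 [801, 1009] CPM in resident macrophages. It was 5.77-fold lower [5.0, 6.69] in UV than in control and 2.78-fold higher [2.34, 3.31] in UV plus VD than in UV. None of the 3 CPM intervals overlap, but they leave out the spread between cells. Ifit2, Ifit3 and Ifit3b, its relatives in the same RNA-binding complex family, stood at 726, 121 and 259 CPM, 462, 99.9 and 292 CPM and 111, 24.0 and 73.0 CPM. Each was highest in control, lowest in UV and between the other libraries in UV plus VD. In the UV plus VD library, 1 cell held 30.6% of the Ifit2 counts, 40.6% of the Ifit3 counts and 54.2% of the Ifit3b counts. With the cell richest in members left out of each library, Ifit1 stood at 1794, 289 and 831 CPM and kept its log2 ratios of -2.59 and 1.49, while Ifit2 stood at 640.0, 123 and 184 CPM and its UV plus VD against UV ratio was 0.54, inside 1.5-fold. Cells with at least 1 Ifit1 count, after thinning every cell to 2800 counts, made up 60% [49.4, 69.9], 25% [17.4, 33.9] and 33.8% [22.8, 46.3] of resident macrophages (63.2%, 31.9% and 35.3% before thinning). These intervals are over cells, and those of UV and UV plus VD overlap. Over the whole myeloid class Ifit1 stood at 1279, 122 and 651 CPM, 10.5-fold lower [9.32, 11.8] in UV, and Ifit2 at 506, 85.3 and 169.6 CPM.

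The viperin locus followed the IFIT order. Rsad2 stood at 5202 [4989, 5421], 1424 [1339.5, 1512] and 2525 [2356, 2703] CPM in resident macrophages, 3.65-fold lower [3.40, 3.93] in UV than in control and 1.77-fold higher [1.62, 1.94] in UV plus VD than in UV. The CPM intervals again did not overlap between libraries, for counting error alone. Cmpk2, its neighbour in the genome, stood at 398, 125 and 279.9 CPM. In the myeloid class the levels were 3596, 499 and 1919 CPM for Rsad2 and 259, 39.7 and 193 CPM for Cmpk2. Thinned cells with an Rsad2 count made up 84.2% [75.3, 90.9], 64.7% [55.2, 73.3] and 72.1% [59.9, 82.3] of resident macrophages (intervals over cells). The UV plus VD interval overlaps both others. So Rsad2 was present in most of these cells in every library while its level differed.

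The OAS family split. Oasl1 stood at 2592 [2442, 2748], 1617 [1527, 1710.2] and 2699 [2524, 2882] CPM, lower in the UV library alone and at similar levels in the others, and at 1859.6, 508 and 1984 CPM in the myeloid class. Oas3 and Oas1a, synthetases of the 2-5A that activates RNase L, were higher in UV instead, at 9.25, 89.2 and 42.6 CPM and 23.1, 69.2 and 42.6 CPM. Oas3 was 9.65-fold higher [3.60, 36.4] in UV than in control, on few control counts, and stood at 6.79, 61.3 and 29.6 CPM in the myeloid class. Mx1 and Mx2 were ordered like the IFIT genes, at 104, 25.3 and 66.9 CPM and 55.5, 25.3 and 54.8 CPM in resident macrophages, and Mx2 stood at 42.1, 11.1 and 43.4 CPM in the myeloid class.

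Of the other effectors, most were higher after UV. Ifi27l2a stood at 1350.1 [1243, 1464], 2842 [2722, 2965] and 1199 [1083, 1323] CPM in resident macrophages, 2.10-fold higher [1.92, 2.31] in UV than in control and 2.37-fold lower [2.13, 2.65] in UV plus VD than in UV. In the myeloid class it stood at 1004, 1683 and 939 CPM. Bst2 stood at 238, 470.1 and 356 CPM, 1.97-fold higher in UV than in control. Trim30a stood at 123, 266 and 155 CPM, 2.17-fold higher in UV. With VD Trim30a was lower than with UV alone, while Bst2 lay within 1.5-fold. Xaf1, a binding partner of the apoptosis inhibitor XIAP, stood at 20.8, 54.6 and 51.7 CPM and, in the myeloid class, 16.3, 81.9 and 43.4 CPM. Rtp4 was an exception among the effectors, at 398, 185 and 335 CPM, lowest in UV. Ifitm3 differed little, at 2076, 2510.1 and 2476 CPM in resident macrophages and 1636, 1699 and 1899 CPM in the myeloid class. Isg20 stood at 29.9, 40.3 and 17.7 CPM in the myeloid class. Within resident macrophages it stood at 25.4, 14.6 and 24.3 CPM, on few counts. There its log2 ratio in UV against control lay inside 1.5-fold, and at -0.61 without the cell richest in members in each library. In UV plus VD against UV it had too few counts to be measured in resident macrophages.

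The GTPases and chemokines of the myeloid class were sparser. None of the 5 GTPases measured in resident macrophages lay past 1.5-fold in UV against control, where Gbp2 stood at 39.3, 53.3 and 73.0 CPM and Irgm1 at 136, 141 and 149 CPM. Without the cell richest in members in each library, Iigp1 (log2 ratio 1.23) and Gbp3 (0.70, from 0.52 with it) were past 1.5-fold higher there. In the myeloid class Gbp2 stood at 31.2, 51.4 and 59.2 CPM. Iigp1, a GTPase that attacks the vacuoles of intracellular parasites, stood at 50.2, 28.6 and 92.7 CPM, but 1 cell held 46.0% of its control counts and 48.9% of its UV plus VD counts, and its direction turned without those cells (log2 ratios -0.64 with and 0.051 without in UV against control). Cxcl10, which draws T cells through CXCR3, stood at 92.5, 17.3 and 54.8 CPM in resident macrophages, 5.34-fold lower [2.80, 10.9] in UV, and at 78.7, 49.0 and 41.4 CPM in the myeloid class. Cxcl9, the other ligand of that receptor, had 1, 59 and 0 counts in the myeloid class, that is 18.2 CPM [13.8, 23.4] in UV, and in the UV library it came from the Gpnmb and Spp1 cluster at 25.2 CPM [16.7, 36.4] and from dendritic cells at 46.8 CPM [30, 69.6], more than from resident macrophages at 2.66 CPM [0.323, 9.62].

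**Figure D2:**
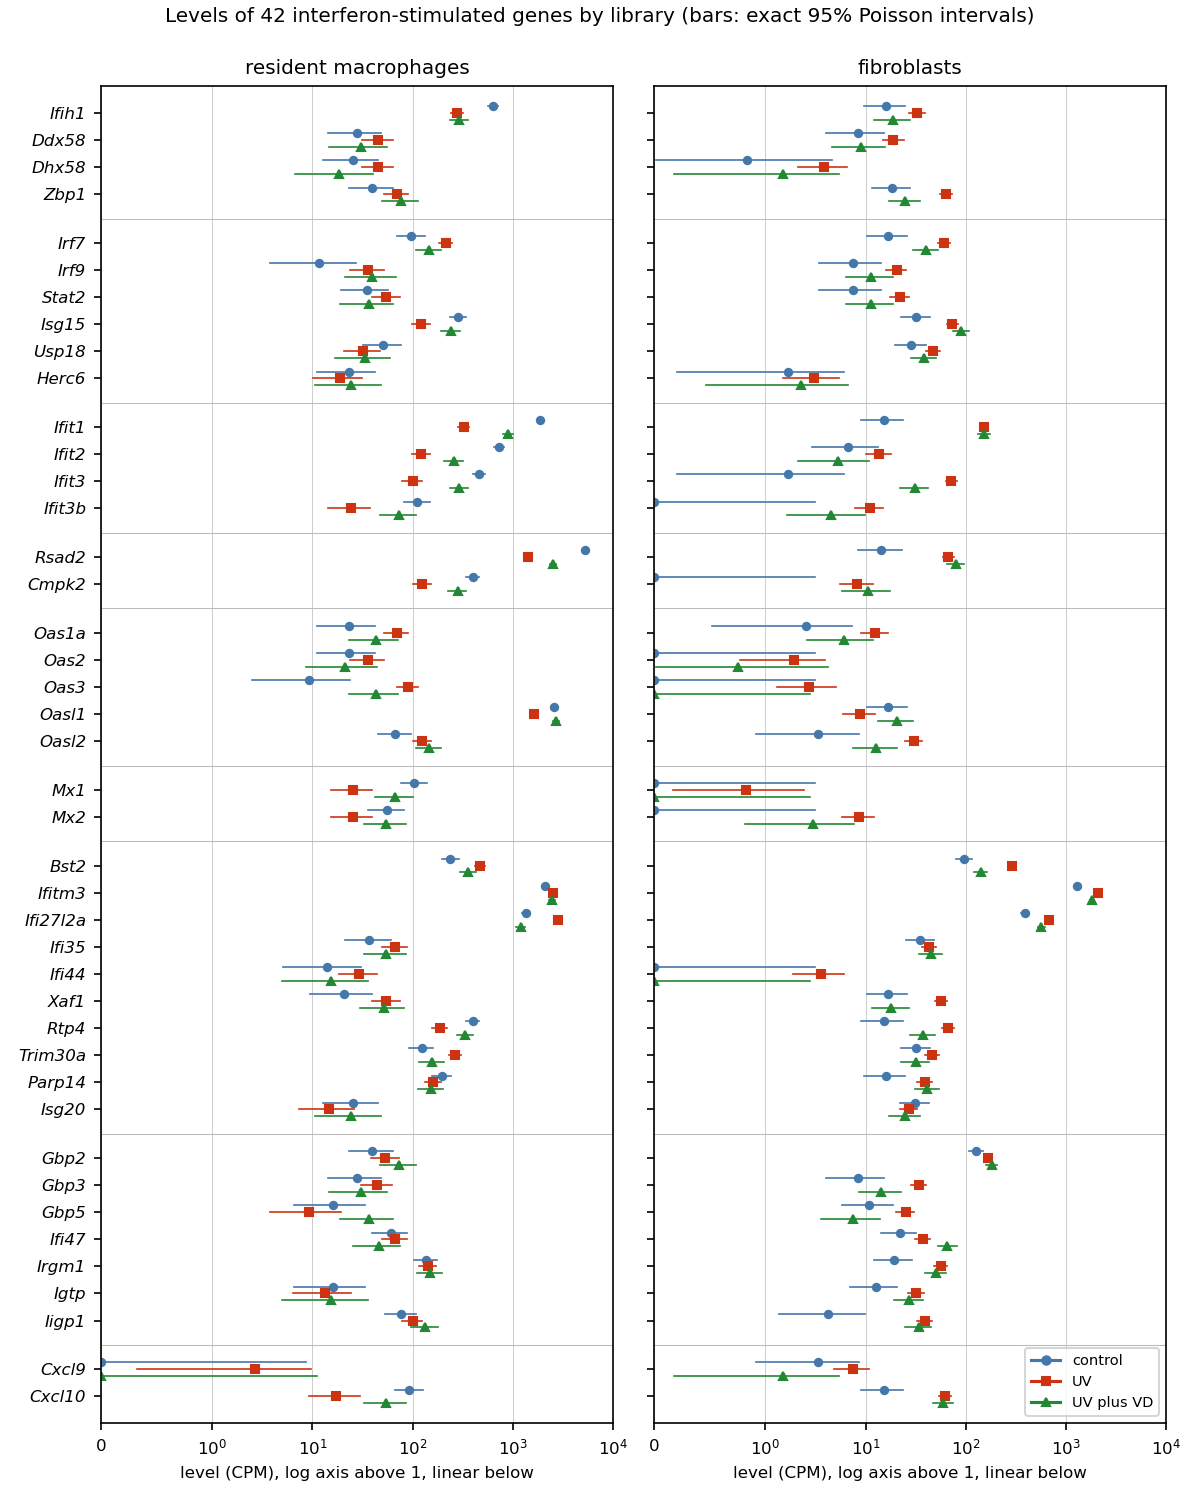
Level of each of the 42 members in CPM (log axis above 1 CPM, linear below) in resident macrophages, left, and fibroblasts, right, with exact 95% Poisson intervals, 1 point per library and genes grouped by role. In resident macrophages the UV points of the IFIT, viperin and Mx genes lie left of control (Ifit1 324 against 1868 CPM), and in fibroblasts those of Ifit1 and Ifit3 lie right of it (Ifit1 150.1 against 15.1 CPM).

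Fibroblasts had a higher level of most members after UV, the IFIT and viperin genes included, which were lower after UV in macrophages. Their summed level was 2332, 4499 and 3721 CPM. In UV against control there were 27 of 36 measured members at least 1.5-fold higher and 0 at least 1.5-fold lower, against 16.0% and 3.64% of all genes measured, with a median of 0.88 [0.72, 1.25] (all genes 0.16). Fibroblasts of the UV plus VD library had, against UV, 2 of 36 measured members at least 1.5-fold higher and 12 at least 1.5-fold lower, against 6.59% and 14.1% of all genes measured, with a median of -0.45 [-0.59, -0.13] (all genes -0.09). Macrophage and monocyte markers in the fibroblasts summed to 391, 713 and 512 CPM and keratinocyte markers to 19452, 13296 and 24552 CPM, and their part in the result was not tested. In fibroblasts with under 1% of counts from epithelial markers (166, 432 and 152 cells), 25 members were higher and 1 lower in UV against control, against 26.9% and 4.81% of all genes, with a median of 0.92 for members and 0.27 for all genes. In the same cells 1 of 36 was higher and 9 of 36 lower in UV plus VD against UV, against 6.39% and 22.2%, with a median of -0.15 for members and -0.19 for all genes, so there the members did not stand apart from the background. With each cell weighted the same, 5 members were lower in UV plus VD than in UV over all fibroblasts. The share of all genes under that weighting was not computed.

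Ifit3 stood at 1.67 [0.203, 6.05], 71.3 [62.9, 80.5] and 30.8 [22.1, 41.8] CPM in fibroblasts and Ifit1 at 15.1 [8.93, 23.8], 150.1 [138, 163] and 151 [131, 174] CPM. Both were far above control in UV, Ifit1 9.96-fold higher [6.24, 16.9], and with VD Ifit3 was 2.31-fold lower [1.66, 3.30] while Ifit1 was level with UV at 1.01-fold higher [0.852, 1.19]. A single cell held 44.3% of the Ifit1 counts of the UV plus VD fibroblasts, and without the top cell of each library Ifit1 stood at 15.2, 142 and 84.6 CPM, a UV plus VD against UV log2 ratio of -0.69. Ifit2 stood at 6.70, 13.7 and 5.26 CPM. Thinned cells with an Ifit1 count made up 3.30%, 7.83% and 7.73% of fibroblasts, against 0.142%, 0.25% and 0.139% of keratinocytes, whose median depth was 6951, 9563 and 9695 counts against 4819, 6579 and 5236 in fibroblasts. Cells with an Ifit1 count at this depth were thus a small minority of the irradiated fibroblasts. Rsad2 stood at 14.2 [8.29, 22.8], 66.9 [58.8, 75.9] and 79.7 [65.2, 96.4] CPM, 4.70-fold higher [2.88, 8.21] in UV, and UV plus VD was not below UV, with 29.2% of its counts in 1 cell.

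Among the sensors, Ifih1 stood at 15.9, 32.6 and 18.8 CPM and Zbp1 at 18.4, 63.6 and 24.8 CPM, each higher in UV than in either other library. Irf7 stood at 16.7, 60.4 and 39.8 CPM and Isg15 at 31.8, 73.2 and 89.5 CPM, with Isg15 as high in UV plus VD as in UV. Mx2 had 0 counts in control fibroblasts, where 3 counts are the limit that a count of 0 allows, and stood at 8.5 CPM [5.78, 12.1] in UV, at least 3.39-fold higher, and 3.01 CPM [0.819, 7.70] in UV plus VD. Oasl1 was again unlike its class, at 16.7, 8.78 and 20.3 CPM, but 65.0% of its control counts lay in 1 cell.

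Bst2 stood at 95.4 [78.7, 115], 290.0 [273, 308] and 139.8 [120.5, 161] CPM in fibroblasts, 3.04-fold higher [2.50, 3.72] in UV than in control and 2.07-fold lower [1.77, 2.44] in UV plus VD than in UV, with no overlap between UV and either other library. Thinned cells with a Bst2 count made up 18.4%, 40.2% and 27.5%, so its difference was spread over many cells. Xaf1 stood at 16.7, 56.8 and 18.0 CPM and Rtp4 at 15.1, 66.4 and 37.6 CPM, both in the same order. Ifitm3 stood at 1281, 2064 and 1806 CPM, Parp14, an ADP-ribosyltransferase, at 15.9, 39 and 41.4 CPM, and Trim30a at 31.8, 45.8 and 31.6 CPM. Ifi35 and Isg20 differed by less than 1.5-fold in both comparisons, at 35.2, 43.1 and 44.4 CPM and 31.0, 26.9 and 24.8 CPM.

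The fibroblast GTPases were higher in UV for 5 of 7 measured. Iigp1 stood at 4.19, 38.7 and 33.8 CPM, 9.24-fold higher [3.87, 28.9] in UV, and Gbp5, which promotes inflammasome assembly, at 10.9, 25 and 7.52 CPM. Gbp2 stood at 126, 165 and 180.4 CPM, within 1.5-fold in both comparisons. Ifi47 was highest with VD, at 21.8, 37.3 and 65.4 CPM, and 38.5% of its control counts lay in 1 cell. Its log2 ratio in UV plus VD against UV was 0.67 and fell inside 1.5-fold in several settings. It was 0.29 without the top 5% of Scrublet scores and 0.48 with clusters weighted as in control. Cxcl10 stood at 15.1, 61.7 and 59.4 CPM, 4.10-fold higher [2.53, 7.04] in UV and about as high with VD, where 1 cell held 27.9% of its counts.

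Fibroblasts fell into clusters whose mix differed between libraries, and the level of several members depended on it. Cluster 14, led by Col1a2, Col1a1 and Lum, held 65, 302 and 60 cells, and cluster 25, led by Pi16 and Cxcl1, 147, 183 and 147 cells. In cluster 14 there were 21 of 30 measured members at least 1.5-fold higher and 0 at least 1.5-fold lower in UV against control, against 23.4% and 6.41% of all genes measured, and in cluster 25 30 of 35 measured members at least 1.5-fold higher and 0 at least 1.5-fold lower, against 14% and 8.75% of all genes measured. In UV plus VD against UV there were 2 of 30 measured members at least 1.5-fold higher and 16 at least 1.5-fold lower in cluster 14, against 12.5% and 19.1% of all genes measured, and 0 of 35 measured members at least 1.5-fold higher and 19 at least 1.5-fold lower in cluster 25, against 10.6% and 11.8% of all genes measured. Ifit1 stood at 2.28 [0.0576, 12.7], 38.7 [31.3, 47.3] and 13.1 [4.81, 28.5] CPM in cluster 14 and at 22.5 [13.1, 36.0], 380.1 [346, 417] and 224 [193, 257] CPM in cluster 25. Within cluster 25 it was 16.9-fold higher [10.4, 29.2] in UV than in control and 1.70-fold lower [1.43, 2.02] in UV plus VD than in UV. The near-equal Ifit1 level of UV and UV plus VD over all fibroblasts stood beside a lower level with VD in each cluster and a larger share of cluster 25 cells with VD. That near-equal level also rested on the single cell named above, which lay in cluster 25. Without the cell richest in members in each library, the log2 ratio over all fibroblasts was -0.69, lower with VD. The UV plus VD level of 224 CPM in cluster 25 includes that cell.

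The clusters also differed in which genes they carried after UV. Rsad2 stood at 2.28, 11 and 15.3 CPM in cluster 14 and 21.2, 183 and 114 CPM in cluster 25, and Ifit3 at 2.28, 26.5 and 8.73 CPM and 1.32, 164 and 42.4 CPM, so both were higher in the Pi16 cluster in the UV library. Bst2 was at similar UV levels in both, at 50.1, 297 and 83.0 CPM and 122, 276 and 169.7 CPM, but was lower in cluster 14 in the control and UV plus VD libraries. Irf7 stood at 4.55, 47.2 and 4.37 CPM and 23.8, 87.5 and 58.5 CPM, Zbp1 at 9.10, 64.7 and 13.1 CPM and 23.8, 61.4 and 31.0 CPM, and Cxcl10 at 11.4, 47.2 and 13.1 CPM and 17.2, 91.7 and 83.7 CPM. With VD, Cxcl10 was near its control level in cluster 14 and near its UV level in cluster 25. The single cell named above, with a large part of the Cxcl10 counts of the UV plus VD fibroblasts, lay in cluster 25. The level there rests partly on that cell. Isg15 stood at 15.9, 57.8 and 30.6 CPM and 41.1, 105 and 120.4 CPM.

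**Figure D3:**
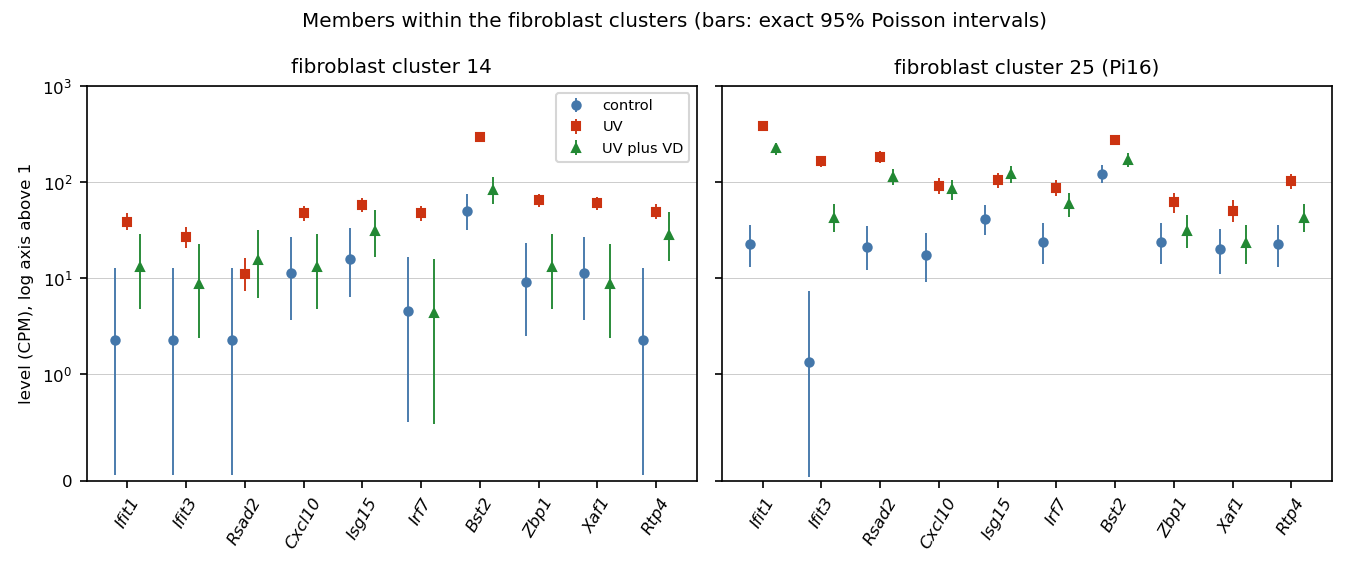
Level in CPM (log axis above 1 CPM, linear below) of 10 members in fibroblast cluster 14, left, and cluster 25, right, by library, with exact 95% Poisson intervals. Ifit1 reached 380.1 CPM in the UV cells of cluster 25 and 38.7 CPM in those of cluster 14, and the UV plus VD point lies below the UV point in both.

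Keratinocytes carried the members at low levels, with a summed level of 211, 361 and 208 CPM. In UV against control there were 5 of 37 measured members at least 1.5-fold higher and 0 at least 1.5-fold lower, against 2.35% and 1.19% of all genes measured, with a median of 0.18 [0.05, 0.24] (all genes -0.01). In UV plus VD against UV there were 0 of 34 measured members at least 1.5-fold higher and 4 at least 1.5-fold lower, against 0.261% and 1.43% of all genes measured, with a median of -0.17 [-0.25, -0.10] (all genes 0.00). The pseudocount holds back ratios at such levels: without it 29 members were higher and 1 lower in UV against control, against 18.4% and 10.7% of all genes, and 1 higher and 27 lower in UV plus VD against UV, against 4.94% and 17.7%. Macrophage and monocyte markers in keratinocytes summed to 14.4, 73.2 and 16.8 CPM, with 16, 17 and 17 of 17 seen, and fibroblast markers to 46.7, 152 and 28.5 CPM, so both moved with the members and their part in the result was not tested. Different keratinocyte clusters also filled the class: cluster 8, led by Il33, held 1934, 111 and 500 cells, cluster 5, led by Sprr1b, 24, 426 and 137, and cluster 6, led by stefin A genes and Krt6b, 9, 568 and 31.

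Ifi27l2a stood at 4.23 [3.78, 4.72], 29.2 [27.5, 31.0] and 2.81 [2.42, 3.24] CPM in keratinocytes, 6.91-fold higher [6.09, 7.85] in UV than in control and 10.4-fold lower [8.89, 12.2] in UV plus VD than in UV. Thinned cells with a count of it made up 1.37%, 7.04% and 1.0%. The other members past 1.5-fold in UV were Bst2, at 2.13, 9.71 and 3.29 CPM, and 3 GTPases: Irgm1, which acts on autophagy, at 1.44, 10.9 and 3.63 CPM, Igtp, a regulatory IRG GTPase also called Irgm3, at 1.99, 9.45 and 5.51 CPM, and Gbp2 at 1.67, 10.7 and 3.78 CPM. Without the pseudocount Irgm1 was 7.53-fold higher [6.09, 9.39] and Igtp 4.76-fold higher [3.92, 5.79] in UV than in control. All 5 genes were highest in UV, and with VD Bst2, Irgm1, Igtp and Gbp2 lay between the other libraries while Ifi27l2a lay below both. Ifitm3 stood at 105, 162 and 93.3 CPM, which is 1.74-fold lower [1.68, 1.80] with VD than in UV. Some of these differences depended on the mix of keratinocyte clusters. With clusters weighted as in control, log2 ratios with VD against UV fell inside 1.5-fold for Ifitm3 (-0.74 to -0.31), Gbp2 (-0.59 to -0.39) and Irgm1 (-0.62 to -0.52). In UV against control that of Bst2 did so (0.70 to 0.56). The other ratios past 1.5-fold named here stayed past it.

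Isg20 was the exception in keratinocytes, at 19.8 [18.8, 20.8], 10.5 [9.49, 11.6] and 20.4 [19.3, 21.5] CPM, 1.88-fold lower [1.69, 2.11] in UV than in control and back at the control level with VD. Ifi35 was at the same level in every library, at 21.2, 20.7 and 20 CPM, and Ifih1 stood at 15.2, 19.8 and 13.4 CPM and Irf7 at 7.29, 14.1 and 12.1 CPM. The antiviral genes that were high in macrophages were low here: Rsad2 at 1.23, 1.43 and 0.634 CPM, Ifit1 at 0.530, 0.909 and 0.332 CPM, Oasl1 at 0.755, 1.22 and 0.604 CPM and Oasl2 at 0.464, 1.38 and 0.559 CPM. These levels were all within a few CPM of 0. Mx2 stood at 0.199, 0.545 and 0.227 CPM, the RNA sensor Ddx58 (RIG-I) at 1.23, 1.61 and 0.710 CPM, Usp18, which removes ISG15 and dampens the type I receptor, at 3.37, 3.06 and 1.68 CPM, and Cxcl10 at 0.437, 2.34 and 0.438 CPM.

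T and NK cells had counts for few members, and their make-up changed with the library. The summed level was 381, 1115 and 302 CPM. In UV against control there were 11 of 14 measured members at least 1.5-fold higher and 0 at least 1.5-fold lower, against 17.0% and 16.7% of all genes measured, with a median of 1.43 [0.30, 1.86] (all genes -0.05), and in UV plus VD against UV 0 of 13 measured members at least 1.5-fold higher and 10 at least 1.5-fold lower, against 18.2% and 18.7% of all genes measured, with a median of -1.26 [-1.70, -0.51]. Trdc, the gamma delta receptor chain, stood at 877, 259 and 667 CPM and Trac, the alpha beta chain, at 19.3, 406 and 168 CPM, so gamma delta markers were high in the control and UV plus VD libraries and alpha beta markers in UV. Keratinocyte markers summed to 60792, 37458 and 70330.4 CPM in these cells and macrophage and monocyte markers to 27.0, 847 and 60.8 CPM, with 6, 15 and 9 of 17 seen. The part of this mix and of these markers in the result was not tested. Only 9 control and 14 UV plus VD cells had under 1% of counts from epithelial markers, against 115 UV cells, so no comparison among such cells was possible.

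Ifi27l2a stood at 8.69 [3.97, 16.5], 325 [290.5, 363] and 11.1 [4.06, 24.1] CPM in T and NK cells, 37.4-fold higher [19.5, 82.6] in UV than in control, and 29.4-fold lower [13.4, 80.7] with VD than in UV. Its log2 ratio in UV against control was 4.16, and 3.40 with each cell assigned to a class on its own. Igtp stood at 9.66, 58.3 and 18.4 CPM, Irgm1 at 2.90, 40.9 and 7.38 CPM and Ifi47 at 2.90, 36.8 and 1.84 CPM, and all 4 GTPases with enough counts were higher in UV than in control and lower with VD than in UV. Gbp2, the fourth of them, stood at 0.966, 21.5 and 1.84 CPM on 1, 21 and 1 counts. Bst2 stood at 32.8, 104 and 53.5 CPM and Rtp4 had 0, 22 and 0 counts, at least 7.77-fold higher in UV than in control. Irf7 stood at 8.69, 28.6 and 27.7 CPM, higher in both irradiated libraries, with 1 cell holding 66.7% of its UV plus VD counts. Ifih1 stood at 10.6, 15.3 and 7.38 CPM and Ifitm3 at 213, 196 and 81.1 CPM. The IFIT, viperin, OAS, Mx and chemokine members had too few counts to compare: Ifit1 had 1, 2 and 0 counts, Rsad2 3, 2 and 2 counts, Oasl1 1, 3 and 2 counts, Mx2 0, 1 and 0 counts and Cxcl10 6, 13 and 0 counts.

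**Figure D4:**
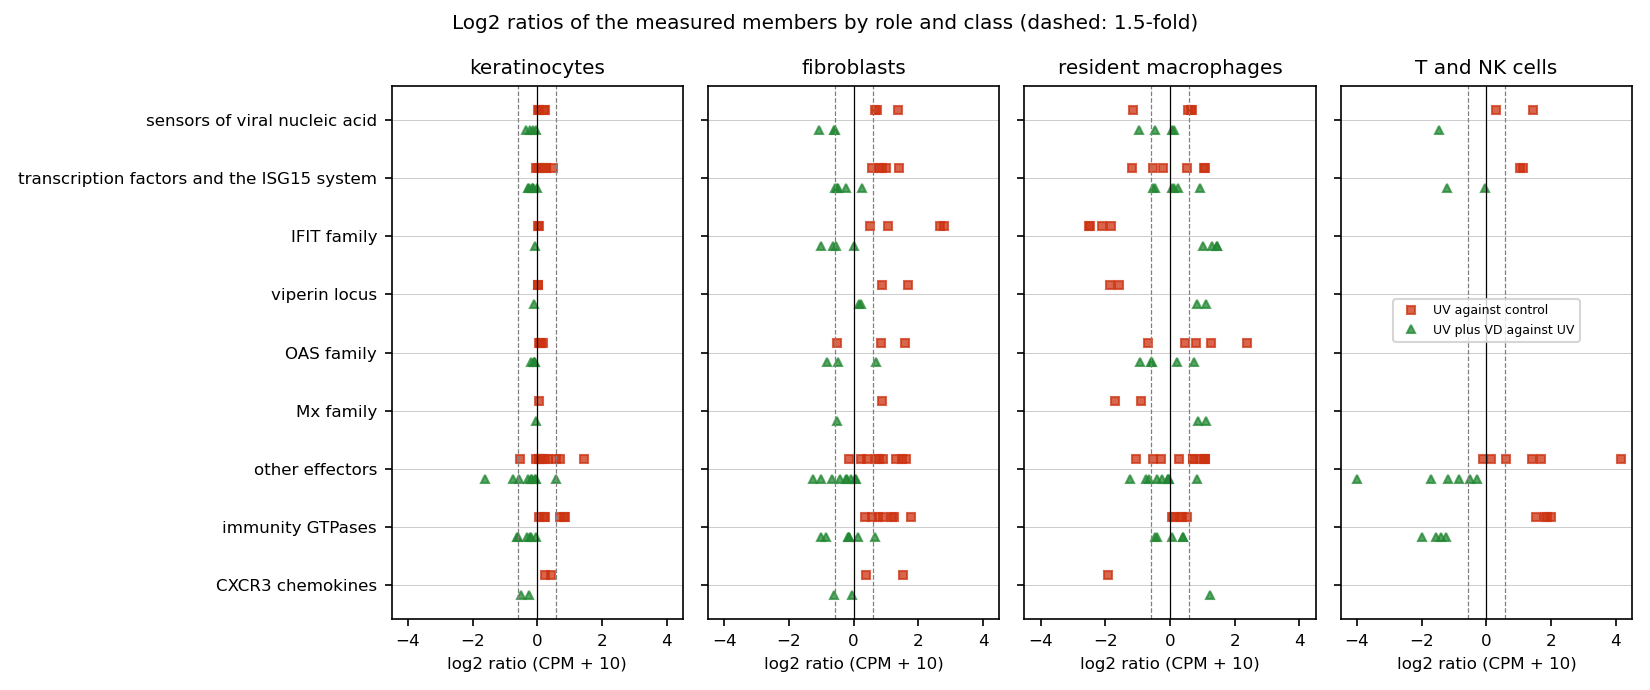
Log2 ratio of CPM plus 10 for each measured member, by role, in keratinocytes, fibroblasts, resident macrophages and T and NK cells, with squares for UV against control, triangles for UV plus VD against UV and dashed lines at 1.5-fold. In UV against control the IFIT squares lie at a median of -2.30 in resident macrophages and 1.87 in fibroblasts.

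Of the rest of the interferon pathway, 72 genes on the list had rows in the tables, and Ifnb1, which encodes interferon beta, followed the macrophage IFIT genes. It stood at 739.8 [661, 825], 58.6 [42.6, 78.7] and 271 [217, 333] CPM in resident macrophages and 491, 18.2 and 185 CPM in the myeloid class. A single cell per library held 13.1%, 38.6% and 24.7% of the Ifnb1 counts of resident macrophages. Thinned cells with an Ifnb1 count made up 40%, 6.03% and 22.1% of resident macrophages, against 0.0350%, 0% and 0.0170% of keratinocytes. Ifng, which encodes interferon gamma, had 0, 193 and 21 counts in T and NK cells, or 197 CPM [171, 227] in UV and 38.7 CPM [24.0, 59.2] in UV plus VD. So the libraries with the most Ifnb1 were not those with the most Ifng.

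Irf1, a factor that interferon gamma and other inflammatory signals induce, stood at 9.25, 20 and 21.3 CPM, 10.9, 61.9 and 15.8 CPM, 77.0, 117 and 30.8 CPM, 3.58, 10.1 and 4.70 CPM and 11.6, 32.7 and 9.22 CPM in resident macrophages, the myeloid class, fibroblasts, keratinocytes and T and NK cells, in that order. In fibroblasts Socs1 and Socs3, inhibitors of Janus kinase signalling, stood at 18.4, 51.3 and 18.8 CPM and 56.9, 126 and 57.1 CPM.

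Of all genes measured in UV against control, 2.35%, 16.0%, 18.3% and 17.0% were higher in keratinocytes, fibroblasts, myeloid cells and T and NK cells. In the same order of classes 1.19%, 3.64%, 6.16% and 16.7% were lower. By group, receptors and Janus kinases had 0 of 9 higher and 0 lower in UV keratinocytes against control, 0 of 7 higher and 0 lower in fibroblasts, 5 of 8 higher and 0 lower in myeloid cells and 2 of 5 higher and 0 lower in T and NK cells. The factors and inhibitors reported had 0 of 7 higher and 0 lower, 2 of 6 higher and 0 lower, 4 of 7 higher and 0 lower and 3 of 7 higher and 1 lower, in that order of classes. The sensors and adaptors had 0 of 9 higher and 0 lower, 1 of 6 higher and 0 lower, 2 of 10 higher and 0 lower and 2 of 4 higher and 0 lower, in that order of classes. In fibroblasts and myeloid cells their higher counts lay near the share of all genes. The other interferon-induced genes had 1 of 29 higher and 0 lower, 13 of 30 higher and 0 lower, 17 of 36 higher and 2 lower and 17 of 22 higher and 0 lower. The keratinocyte gene of that group was Samhd1, which depletes nucleotides, at 31.0, 84.7 and 28.6 CPM. In fibroblasts Lgals3bp and Ly6e, a surface protein that blocks coronavirus entry, stood at 66.1, 256 and 108 CPM and 337, 781 and 491 CPM. In myeloid cells the 2 lower ones were Ifi203 and Mndal, of the Ifi200 family, at 459, 228 and 495 CPM and 365, 189 and 318 CPM, while Ms4a4c stood at 17.6, 523 and 7.89 CPM.

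In UV plus VD against UV, receptors and Janus kinases had 0 of 9 higher and 0 lower in keratinocytes, 0 of 7 higher and 1 lower in fibroblasts, 0 of 8 higher and 2 lower in myeloid cells and 0 of 6 higher and 3 lower in T and NK cells. The factors and inhibitors had 0 of 7 higher and 0 lower, 0 of 6 higher and 3 lower, 0 of 7 higher and 2 lower and 1 of 7 higher and 3 lower, and the sensors and adaptors 0 of 9 higher and 0 lower, 0 of 5 higher and 0 lower, 1 of 9 higher and 0 lower and 0 of 4 higher and 2 lower. The other interferon-induced genes had 0 of 30 higher and 2 lower, 0 of 30 higher and 9 lower, 3 of 36 higher and 9 lower and 0 of 20 higher and 15 lower. Of all genes measured, 0.261%, 6.59%, 8.47% and 18.2% were higher and 1.43%, 14.1%, 17.1% and 18.7% lower, in that order of classes. Several of the group counts lay near those shares.

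Set directly against control, the UV plus VD library had a larger share of members than of all genes above control in fibroblasts. In the myeloid class and its resident macrophages the share of members was larger than that of all genes both above and below control. In fibroblasts 13 of 30 measured members lay 1.5-fold or more above control and 0 below it (median log2 ratio 0.50), against 8.56% and 3.85% of all genes. In keratinocytes 0 of 32 lay above and 0 below (median 0.01), against 1.37% and 0.771%. In the myeloid class 12 of 37 lay above and 6 below (median 0.09), against 11.1% and 6.95%. In resident macrophages 6 of 32 lay above and 6 below (median 0.02), against 13.1% and 8.0%. Macrophage Ifit1 and Rsad2 remained below control (901 against 1868 CPM and 2525 against 5202 CPM), while fibroblast Ifit1 and Rsad2 remained above it (151 against 15.1 CPM and 79.7 against 14.2 CPM).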

How the data were processed

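Whole skin cells were sequenced in 3 single-cell libraries, 1 per treatment label. The authors deposited a table of raw integer counts for each library, genes by cells. Per the submitters' processing notes FastQC, fastp, STAR and featureCounts were used, with no versions and the human build GRCh38. The symbols are mouse symbols, so no coordinates from the authors' alignment are given. The sources used here do not say if reads or molecules were counted, and intervals are too narrow if reads were. Barcodes under 200 genes or over 20% mitochondrial counts were left out. Cells were clustered with scanpy 1.11.5 (2000 variable genes without interferon genes, 30 components, 15 neighbours, Leiden resolution 1, no correction between libraries) and named from 17 marker lists. Scrublet, as run in scanpy, called 0 doublets in each library, so no cell was removed on its calls and doublets may remain.

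For each class and library, counts of its cells were added up and scaled to CPM. Log2 ratios used a pseudocount of 10 CPM, members with at least 20 counts over both libraries, and classes with at least 50 cells in each. Folds are ratios of CPM without the pseudocount. Levels have exact Poisson intervals, folds exact conditional ones, and the medians order-statistic intervals over members. A gene at 0 was set against 3 counts. To separate class shares from levels, all-cell CPM was recomputed with each class at its control share of counts, and each difference was split into a part from class shares and a part from within classes. No p-value was computed. Per class, values are printed for members with at least 50 counts that were among the 5 highest or 5 lowest ratios of either comparison, and for the member of each role group with the most counts. The statistics were tested on simulated data. A gene of the pathway list is not reported here. The members and gene lists were chosen with earlier results of these data known. Tools were Python 3.11.15, numpy 2.4.6, scipy 1.17.1 and pandas 2.3.3.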

Additional observations from a re-analysis of the deposited data

Results flagged for a closer look

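The IFIT and viperin genes differed in opposite directions in fibroblasts and in myeloid cells of the UV library against the control library. The IFIT family had a median log2 ratio of 1.87 in fibroblasts and -1.94 in myeloid cells, and the viperin locus (Rsad2 and Cmpk2) had 1.27 in fibroblasts and -2.63 in myeloid cells. These were singled out because the 1 library of each group lay above control in one class and below it in the other. With 1 library per group the difference between the classes was not tested. Within resident macrophages alone the medians in UV against control were -2.30 for the IFIT family and -1.73 for the viperin locus.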

How the results depend on the processing

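No paired analysis was possible because each group has 1 library, so the groups share fewer than 2 replicate numbers and no library could be left out. Of 366 recomputed medians and counts, 328 stayed within their limits, 38 moved and 0 reversed. A count could not be labelled reversed, and a median only where its main interval left out 0, so the 0 was partly fixed in advance. Of 167 single-gene ratios, 107 stayed and 60 moved with each cell weighted the same. Of 36 set against resident macrophages alone, 9 stayed, 25 moved and 2 reversed. The 1% epithelial limit, the cluster weights and resident macrophages alone were alternatives added after seeing the data. Scaling by the median ratio used the median CPM ratio over genes with at least 20 counts in each library, unlike the all-gene medians above. The log2 of that ratio, which the scaling sets to 0, lay over 0.1 from 0 in several groups of cells. In T and NK cells it was -0.11 in UV against control and 0.23 in UV plus VD against UV. It was -0.11 in all cells (with VD), 0.17 in resident macrophages (UV) and 0.17 in fibroblast cluster 14 (with VD). In myeloid cells under the 1% epithelial limit it was 0.104 (with VD). That scaling moved none of the 30 medians and counts recomputed with it, which cover the classes and all cells only. Resident macrophages and cluster 14 were not rescaled. Among 167 single-gene ratios, 156 stayed and 11 moved under it. With a pseudocount of 1 CPM, UV against control gave a median of 0.58 with 18 higher and 1 lower in keratinocytes, 1.37 with 1 lower in fibroblasts, 2.06 in T and NK cells, and 1.68 with 35 higher in all cells, and UV plus VD against UV gave -0.61 with 1 higher and 20 lower in keratinocytes, -1.81 in T and NK cells, and -1.65 with 1 higher and 38 lower in all cells. With no filter on low counts, T and NK cells had 17 higher in UV against control, and a median of -0.50 with 17 lower in UV plus VD against UV. In fibroblasts, 1 member instead of 0 was lower in UV against control under scaling without mitochondrial and rRNA genes, equal weights per cell, removal of the top 5% of Scrublet scores, removal of cells with markers of another lineage, and the limit of 1% epithelial counts. In UV plus VD against UV fibroblasts had 5 lower with equal weights per cell, 1 higher without the top Scrublet scores, clustered with interferon genes, at resolution 0.5 or under the 1% limit, and a median of -0.60 with 0 higher and 19 lower with clusters weighted as in control. In keratinocytes, 1 was lower in UV against control without mitochondrial and rRNA genes, and in UV plus VD against UV 1 was higher and 2 lower with each cell assigned on its own and 1 lower with clusters weighted as in control. With each cell assigned on its own myeloid cells had 5 lower in UV plus VD against UV and T and NK cells 1 lower in UV against control, as they also had without the top Scrublet scores. Among single genes of the myeloid class, UV against control reversed for Cxcl10 (0.072, each cell assigned on its own) and Iigp1 (0.051 without the top cell, 0.35 in resident macrophages alone, 1.23 there without the top cell), and UV plus VD against UV for Iigp1 (-0.56, resident macrophages without the top cell) and Isg20 (0.48 in resident macrophages alone, 0.57 without the top cell). The Isg20 ratios in resident macrophages were on fewer than 20 counts over both libraries. The causes were not tested, except that a smaller pseudocount shrinks ratios less. The minimum of 20 counts left out most members in the T and NK cells, where 28 of 42 fell below it in UV against control, at a summed level of 381 CPM in control against 12759 CPM in myeloid cells.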

Other observations

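Some classes were filled by the UV library alone or almost alone, and no comparison between libraries was possible for them. Endothelial cells numbered 7, 76 and 1 cells. Their summed level of the members was 6244 CPM in control and 10331 CPM in UV plus VD, on too few cells to compare. In the UV library their summed level of the members was 7689.7 CPM, against 361 CPM in keratinocytes, 4499 CPM in fibroblasts, 7243 CPM in the whole myeloid class and 12063 CPM in its resident macrophages. Ifitm3 stood at 5111 CPM [4902, 5326] in UV endothelial cells and Bst2 at 315 CPM [265, 372]. The immunity GTPases stood above their fibroblast levels there: Gbp2 stood at 335 CPM [283, 394], Iigp1 at 258 CPM [213, 310.1], Gbp5 at 186 CPM [148, 230.5] and Ifi47 at 129 CPM [97.8, 167]. For these 4 genes the UV levels in fibroblasts were 165, 38.7, 25 and 37.3 CPM. Hair matrix and shaft cells numbered 0, 306 and 0 cells. Their summed level of the members was 306.2 CPM in UV, below that of UV keratinocytes. Their Cxcl10 stood at 34.2 CPM [26.8, 43.0] in UV, with 28.8% of the counts in 1 cell.

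Within the UV myeloid class the Gpnmb and Spp1 cluster and the dendritic cells had their own mix of members. Irf7 stood at 479 CPM [439, 521] in the Gpnmb and Spp1 cluster, 213 CPM [181, 249] in resident macrophages and 174 CPM [139, 214] in dendritic cells. Ifit3 stood at 178 CPM [154, 205], 99.9 CPM [78.6, 125] and 60.5 CPM [41.1, 85.8] in the same order, whereas Rsad2 stood at 268 CPM [239, 300.5], 1424 CPM [1339.5, 1512] and 46.8 CPM [30, 69.6] and Oasl1 at 214 CPM [188, 243], 1617 CPM [1527, 1710.2] and 25.4 CPM [13.5, 43.4]. Cxcl10 stood at 66.6 CPM [52.3, 83.6], 17.3 CPM [9.22, 29.6] and 107 CPM [80.8, 139.6]. The clusters were formed without the interferon genes.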
